A study of Mus musculus with 18 samples.

Results

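The 37 genes described here encode the enzymes that make cholesterol and fatty acids, together with the proteins that control their transcription and move sterols. They were taken from the deposited count table by a fixed list of mouse gene symbols, and all 37 were found among its 55487 genes. They fall into 5 sets by role, with 8 genes of the mevalonate segment, 12 of the sterol segment, 6 of SREBP control and sterol transport, 5 of fatty acid synthesis and 6 of fatty acid elongation and desaturation. RNA had been sequenced from small intestinal organoids of wild-type mice, which are cultures of epithelium grown from isolated crypts in a gel. The organoids were kept for 4 days with norepinephrine at 1 µM (5 samples), with its vehicle HCl (4 samples), with UK14,304 at 1 µM (5 samples), or with its vehicle DMSO (4 samples). Norepinephrine is the transmitter of sympathetic nerves and acts on alpha and beta adrenergic receptors, and UK14,304 is an agonist selective for alpha-2 receptors. Each library title carries a number, m1 to m5, which is read here as the mouse the organoids came from. On that reading the cultures of a mouse were split over the groups, and mouse 5 has no vehicle library. The study's methods give the mice as female C57BL/6 animals and the organoids as passaged before treatment. Such cultures lack the nerves, immune cells and fibroblasts of the gut wall. The labels give 1 library per number and group, so the numbers, read as mice, are the replicates.

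Cholesterol is built from acetyl-CoA through mevalonate and isoprenoid units to squalene, which is then closed into a ring and trimmed to cholesterol. Transcription of nearly all of these enzymes is driven by SREBP-2, encoded by Srebf2, while SREBP-1, encoded by Srebf1, acts more on fatty acid synthesis. Both factors are held in the endoplasmic reticulum by Scap and the Insig proteins when sterols are plentiful and are released by proteolysis when sterols are scarce. In the small intestine the epithelium both absorbs cholesterol and makes its own, and dividing cells need sterols and fatty acids for new membranes.

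The libraries held 21866149 to 27850373 counts, and all 37 genes passed the filter on low counts with 15247 genes tested. 7 libraries gave over 1% of their counts to a ribosomal RNA gene (1 HCl, 3 DMSO, 2 norepinephrine and 1 UK14,304), and the other 11 gave less. The libraries also differed in how counts depended on the GC content of genes. The slope of log2 level on GC ran from 0.049 to 0.079 per 10 percentage points of GC in the HCl libraries and from -0.040 to 0.13 in the DMSO libraries. It ran from -0.16 to 0.21 with norepinephrine and from -0.24 to 0.065 with UK14,304. The norepinephrine library of mouse 4 stood apart at 0.21, with the next norepinephrine library at -0.076, and the UK14,304 library of mouse 4 was lowest of all at -0.24. Counts of calls, and the log2 values of genes named under norepinephrine that moved by over 1.5 times, are also given without the norepinephrine library of mouse 4. Epithelial markers were high in every library (the 7 genes summed to 5665 to 6179 CPM). The 8 markers listed for cells outside the epithelium summed to 9.87 to 15.9 CPM. Of these, Vim had the highest median at 7.85 CPM, and the fibroblast gene Col3a1 and the fat cell gene Adipoq had medians of 0 CPM. In bulk RNA, fewer cells of a type and less RNA per cell cannot be told apart.

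The promoters of the genes that changed are shown because the known control of this pathway acts there, through SREBP sites and the CCAAT boxes bound by NF-Y. RefSeq start sites on GRCm38.p6 were at hand for 30 of the 37 genes, each with 250 bases before and 50 bases after the start. The 7 without an entry were Fdps, Fdft1, Sqle, Stard4, Scd1, Scd2 and Fads1. 3 motifs were searched on both strands, which were TCACNCCAC for the SREBP site, CACGTG for the E-box and CCAAT for the CCAAT box. Stretches before the start are printed 5′ to 3′ on the gene's strand for the called genes with an entry and for the gene with the SREBP site. Capitals mark each motif found, and ATTGG is the CCAAT box read on the other strand.
Insig1, chr5:28071166-28071346, plus strand: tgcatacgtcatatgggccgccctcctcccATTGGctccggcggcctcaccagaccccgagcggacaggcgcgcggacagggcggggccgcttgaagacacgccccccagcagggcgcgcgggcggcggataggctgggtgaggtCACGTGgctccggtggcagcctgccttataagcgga
Lss, chr10:76531513-76531577, plus strand: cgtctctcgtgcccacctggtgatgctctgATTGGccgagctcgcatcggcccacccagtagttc
Acss2, chr2:155517940-155518004, plus strand: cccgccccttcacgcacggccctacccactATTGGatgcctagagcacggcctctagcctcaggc
Hmgcs1, chr13:119690101-119690340, plus strand: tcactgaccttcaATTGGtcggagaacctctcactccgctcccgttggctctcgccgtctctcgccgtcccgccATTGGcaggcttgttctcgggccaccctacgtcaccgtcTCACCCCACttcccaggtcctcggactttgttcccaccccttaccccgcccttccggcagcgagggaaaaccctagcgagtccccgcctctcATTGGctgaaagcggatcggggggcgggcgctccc
A CCAAT box was found in 25 of the 30 genes (83.3%), against 43.0% of the 10723 tested genes with an entry and 37.4% of all 32851 promoters. All 10 sterol segment genes in the table held one, and 14 of the 30 held 2 or more, against 16.6% of tested genes. The genes without one were Acat2, Scap, Acaca, Elovl6 and Fads2. The SREBP site as spelled was found in 1 of 30 (3.33%), Hmgcs1, against 1.45% of tested genes and 1.24% of all promoters. The E-box was found in 6 of 30 (20.0%), which were Hsd17b7, Sc5d, Dhcr7, Scap, Insig1 and Elovl5, against 11.5% of tested genes. A match of letters is a description of the window and not a bound site.

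Levels are given as CPM, which are counts scaled to a common TMM-normalized library size, and levels of different genes are compared only per kilobase of merged exons. By the median over the 18 libraries, the most abundant were both stearoyl-CoA desaturases and the delta-6 desaturase Fads2, with Scd2 at 812 CPM per kilobase, Scd1 at 304 and Fads2 at 201. Of the sterol enzymes, Cyp51 (lanosterol demethylase) came first at 169, followed by the mevalonate enzyme Hmgcs1 (HMG-CoA synthase) at 120.2. The sterol-regulated inhibitor Insig1 stood between them at 155, and Srebf2 at 55.2 was above Srebf1 at 35.7. The lowest was the isomerase Idi1 at 1.29 CPM per kilobase, with 78 to 141 counts per library, so its values carry the widest counting error. The acetyl-CoA carboxylase Acaca stood at 4.07, where its merged exons of 17074 bases lower the value per kilobase.

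**Figure D1:**
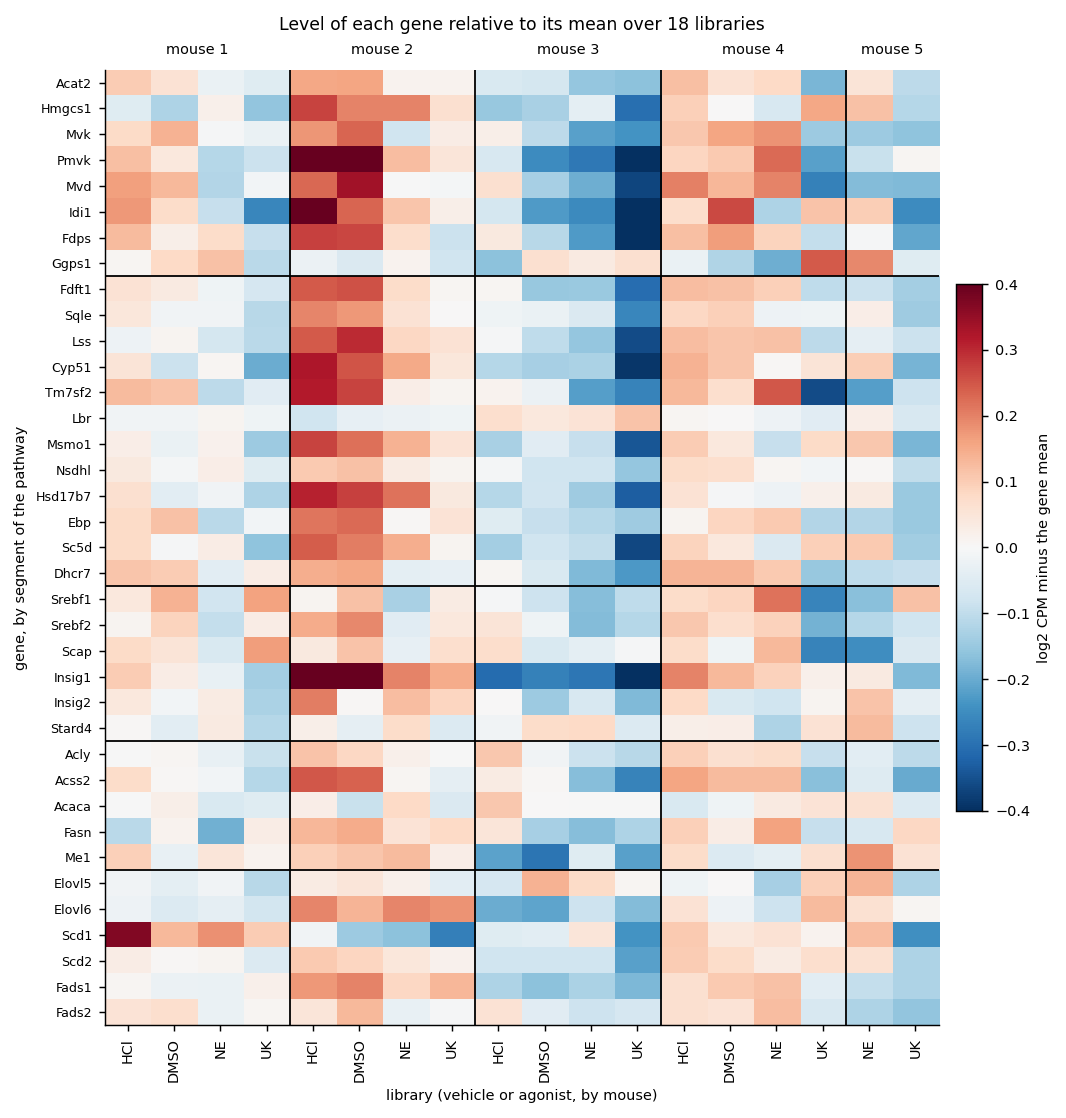
Log2 CPM of each of the 37 genes (rows, in 5 sets by role separated by black lines) minus that gene's mean over the 18 libraries, for each library (columns, by mouse and then by group; NE is norepinephrine, UK is UK14,304), with colours cut at 0.4 on either side. Most rows are red in the vehicle libraries of mouse 2 and blue in the libraries of mouse 3, and within a mouse the UK14,304 column is mostly bluer than the DMSO column.

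With UK14,304, 6 of the 37 genes fell and none rose at an adjusted p under 0.05, beside 1.22% of all tested genes called (1.04% in the lower direction). Those that fell were Fdps, Acss2, Insig1, Lss, Fdft1 and Sqle, by 10.6 to 16.7% against DMSO, and 4 of them (Fdps, Fdft1, Sqle and Lss) encode consecutive enzymes that end at lanosterol. The log2 fold change was below 0 for 33 of the 37 (51.3% of all tested genes), with a median of -0.13 against -0.0043 over all tested genes. At an unadjusted p under 0.05, 24 genes were lower and 0 higher, where 8.68% of all tested genes were lower and 6.12% higher. In 21 of the 37 the UK14,304 library was lower than the DMSO library in all 4 mice that had both, against 15.5% of tested genes, and in 0 it was higher in all 4, against 14.0%. For 1 of the 37, Acss2, every UK14,304 library lay below every DMSO library, against 1.78% of tested genes. Without mouse 2, and likewise without mouse 3, 0 of the 37 genes passed, and of all tested genes 24 (0.157%) and 23 (0.150%) were then called, against 1.22% with all mice. edgeR's quasi-likelihood test was used with the mouse as a block over all 18 libraries, p-values were adjusted over all 15247 genes by Benjamini-Hochberg, and errors of log2 fold changes are standard errors.

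In the mevalonate segment, Fdps was the gene called with UK14,304. It encodes farnesyl diphosphate synthase, which makes the last intermediate shared by sterols and protein prenylation. Values of single libraries are given in the order of mice 1 to 4 for the vehicles and mice 1 to 5 for the agonists. The DMSO libraries held 38.1, 45.2, 34.7 and 42.2 CPM, and the UK14,304 libraries held 35.2, 35.3, 27.9, 35.1 and 32.5 CPM. UK14,304 was lower in each of the 4 mice, although the groups overlapped, at 40.0 ± 4.56 CPM (SD, n = 4) against 33.2 ± 3.19 CPM (SD, n = 5). The log2 fold change was -0.26 ± 0.051 (adjusted p = 0.0104), and Fdps fell by 16.7%. Fdps lies at chr3:89093588-89101959 (GRCm38), and 26.7% of its exon bases are shared on the same strand with the gene model Gm43738, so reads there were not counted for it.

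Mvd, which encodes the decarboxylase that makes isopentenyl diphosphate, had the lowest log2 value with UK14,304 at -0.26 ± 0.066 and missed the threshold (adjusted p = 0.0593). Its DMSO libraries held 158, 182, 132 and 158 CPM, and its UK14,304 libraries held 143, 144, 112, 119.5 and 128 CPM. All 4 mice were lower, and mouse 4 moved from the second highest DMSO value to the second lowest UK14,304 value. Idi1, the isopentenyl diphosphate isomerase, stood at 4.602, 5.15, 3.74 and 5.26 CPM in DMSO and 3.66, 4.45, 3.22, 4.74 and 3.67 CPM with UK14,304. Its log2 fold change of -0.25 ± 0.11 was about as low, with the widest error of the 37 genes, and did not pass (adjusted p = 0.287). The kinases Mvk and Pmvk and the thiolase Acat2 were lower in all 4 mice, with log2 values of -0.20, -0.23 and -0.15 and adjusted p of 0.111, 0.123 and 0.0763. Hmgcs1, which condenses acetoacetyl-CoA to HMG-CoA, went the other way in mouse 4, with DMSO libraries at 514, 642, 512 and 559.9 CPM and UK14,304 libraries at 501, 585, 454, 622 and 517 CPM (log2 fold change -0.059 ± 0.055, adjusted p = 0.630). Ggps1, which makes geranylgeranyl diphosphate on a branch off the sterol path, held 35.5, 32.3, 35.1 and 30.9 CPM in DMSO and 31.2, 31.8, 35.1, 39.8 and 32.5 CPM with UK14,304, higher in mouse 4 and lower in mouse 1 (0.016 ± 0.082, 95% interval -0.16 to 0.19).

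In the sterol segment, Fdft1, Sqle and Lss fell. Fdft1 (squalene synthase) commits farnesyl diphosphate to sterols, and its DMSO libraries held 218, 254, 192 and 230.5 CPM against 203, 214, 172, 198 and 193 CPM with UK14,304. Sqle (squalene epoxidase) catalyses the first oxygen-dependent step, and it stood at 389, 443, 385 and 420.0 CPM against 364, 394, 328, 389 and 356 CPM. Lss (lanosterol synthase) closes the ring, and it stood at 325, 397, 301 and 348 CPM against 299.6, 336, 252, 300.0 and 304 CPM. For each of the 3 genes every mouse was lower with UK14,304, mouse 2 was highest in both groups and mouse 3 lowest in both, and the groups overlapped. Fdft1 fell by 11.4% (log2 fold change -0.17 ± 0.039, adjusted p = 0.0325), Sqle fell by 10.6% (-0.16 ± 0.036, adjusted p = 0.0290) and Lss fell by 12.9% (-0.20 ± 0.042, adjusted p = 0.0205). Fdft1 shares 18.8% of its exon bases with Ctsb on the other strand, and the counting used no strand, so reads in that stretch were left out for both genes.

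Of the other 9 sterol genes, none passed, and 8 had log2 values of -0.24 to -0.082 with an unadjusted p under 0.05. Dhcr7, the last reductase of the pathway, and Cyp51 came nearest, at -0.17 ± 0.043 and -0.17 ± 0.045 (adjusted p = 0.0598 and 0.0721). Cyp51 libraries held 689, 869, 666 and 789 CPM in DMSO and 638, 754, 559, 757 and 643 CPM with UK14,304, a smaller difference in mouse 4 than in mice 1 to 3. The 17-beta-hydroxysteroid dehydrogenase Hsd17b7 showed the same division, with 95.6, 119, 93.2 and 98.0 CPM in DMSO and 90.3, 101, 78.3, 99.7 and 88.7 CPM with UK14,304, where mouse 4 was slightly higher. Its log2 fold change was -0.14 ± 0.043 (adjusted p = 0.139). Tm7sf2, a sterol C14 reductase, was lower in all 4 mice at 69.1, 77.0, 62.9 and 66.9 CPM in DMSO and 61.9, 64.3, 53.0, 49.8 and 60.3 CPM with UK14,304 (-0.24 ± 0.079, adjusted p = 0.176), and 12.1% of its exon bases are shared with Vps51. Lbr, which is a second C14 reductase and also a receptor of the nuclear lamina, was the exception in this set at 0.00022 with a 95% interval of -0.070 to 0.071.

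Among the regulators, Insig1 was the gene called with UK14,304. Insig1 is itself a target of SREBP and keeps Scap in the endoplasmic reticulum. The DMSO libraries held 479.9, 632, 390.2 and 514 CPM and the UK14,304 libraries 428, 521, 310.0, 477 and 416 CPM. The order of the mice was the same in both groups, with mouse 2 first, then mouse 4, mouse 1 and mouse 3, and each mouse was lower with UK14,304. The group values of 504 ± 100 CPM (SD, n = 4) and 430.4 ± 79.2 CPM (SD, n = 5) overlapped widely. Within mice Insig1 fell by 14.6% (log2 fold change -0.23 ± 0.042, adjusted p = 0.00793). Its paralog Insig2, which is not induced by SREBP in the same way, stood at -0.0070 with a 95% interval of -0.11 to 0.092.

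Srebf2 stood at 416, 448, 387 and 410.3 CPM in DMSO and 399, 403, 362, 343 and 370.4 CPM with UK14,304. It was lower in all 4 mice, with a log2 fold change of -0.13 ± 0.050 that did not pass (adjusted p = 0.221). Srebf1 was at 218, 215, 187 and 211 CPM in DMSO and 221, 203, 185, 165 and 215 CPM with UK14,304, and mouse 1 was slightly higher with the agonist (-0.073 ± 0.083, adjusted p = 0.707). Scap, the escort protein of both factors, gave -0.0062 with a 95% interval of -0.15 to 0.14. Stard4, a cytosolic sterol carrier, was at 514, 516, 556 and 539 CPM in DMSO and 489, 509, 509, 551 and 499 CPM with UK14,304, where mouse 4 was the only mouse higher (-0.061 ± 0.047, adjusted p = 0.544).

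In fatty acid synthesis, Acss2 fell and had the lowest p of the 37 genes. It encodes the cytosolic synthetase that makes acetyl-CoA from acetate, the building unit of both pathways. Its DMSO libraries held 220.4, 258, 220.5 and 239.6 CPM and its UK14,304 libraries 203, 214, 183, 195 and 191 CPM, so that the highest UK14,304 library lay below the lowest DMSO library. Acss2 fell by 15.3% (log2 fold change -0.24 ± 0.042, adjusted p = 0.00516). Acly, which makes the same product from citrate, was lower in all 4 mice at -0.11 ± 0.034 (adjusted p = 0.157). The enzymes that build the chain did not pass. Fasn (fatty acid synthase) was at 662, 727, 598 and 669.5 CPM in DMSO and 669, 692, 602, 614 and 695 CPM with UK14,304, higher in 2 mice and lower in 2 (-0.027 ± 0.057, 95% interval -0.15 to 0.093). Acaca was at -0.0031 (95% interval -0.099 to 0.093). The malic enzyme Me1, a source of NADPH, was higher in 3 of 4 mice, with 75.8, 83.4, 63.1 and 74.5 CPM in DMSO and 78.0, 78.8, 66.5, 80.8 and 80.5 CPM with UK14,304 (0.031 ± 0.046, adjusted p = 0.776).

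None of the 6 genes of elongation and desaturation passed with UK14,304. Scd1, which adds the double bond at carbon 9, was at 1594, 1318, 1416 and 1502 CPM in DMSO and 1564, 1205, 1234, 1471 and 1228 CPM with UK14,304, lower in all 4 mice (-0.12 ± 0.049, adjusted p = 0.267). Scd2 and Fads2 were also lower in all 4 mice, at -0.082 and -0.084. The elongase Elovl6, which extends palmitate, had the highest log2 value of the 37 genes, with 271, 309.6, 243 and 278 CPM in DMSO and 267, 319, 249.9, 307 and 283 CPM with UK14,304 (0.046 ± 0.041, adjusted p = 0.617). Elovl5, which extends polyunsaturated chains, held 90.1, 95.8, 101.96 and 92.8 CPM in DMSO and 85.8, 89.996, 93.2, 98.9 and 84.9 CPM with UK14,304, higher in mouse 4 alone (-0.074 ± 0.055). The delta-5 desaturase Fads1 was at -0.046. The UK14,304 library of mouse 4 had the lowest GC slope of all libraries. Without it the log2 values with UK14,304 were -0.13 for Hmgcs1 and Elovl5, -0.089 for Ggps1 and -0.11 for Stard4. They were -0.22 for Cyp51 and -0.19 for Hsd17b7, and -0.21, -0.16 and -0.085 for Mvd, Tm7sf2 and Srebf2. Srebf1 and Fasn were then at 0.023 and 0.019. The part of GC content in these values was not tested.

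**Figure D2:**
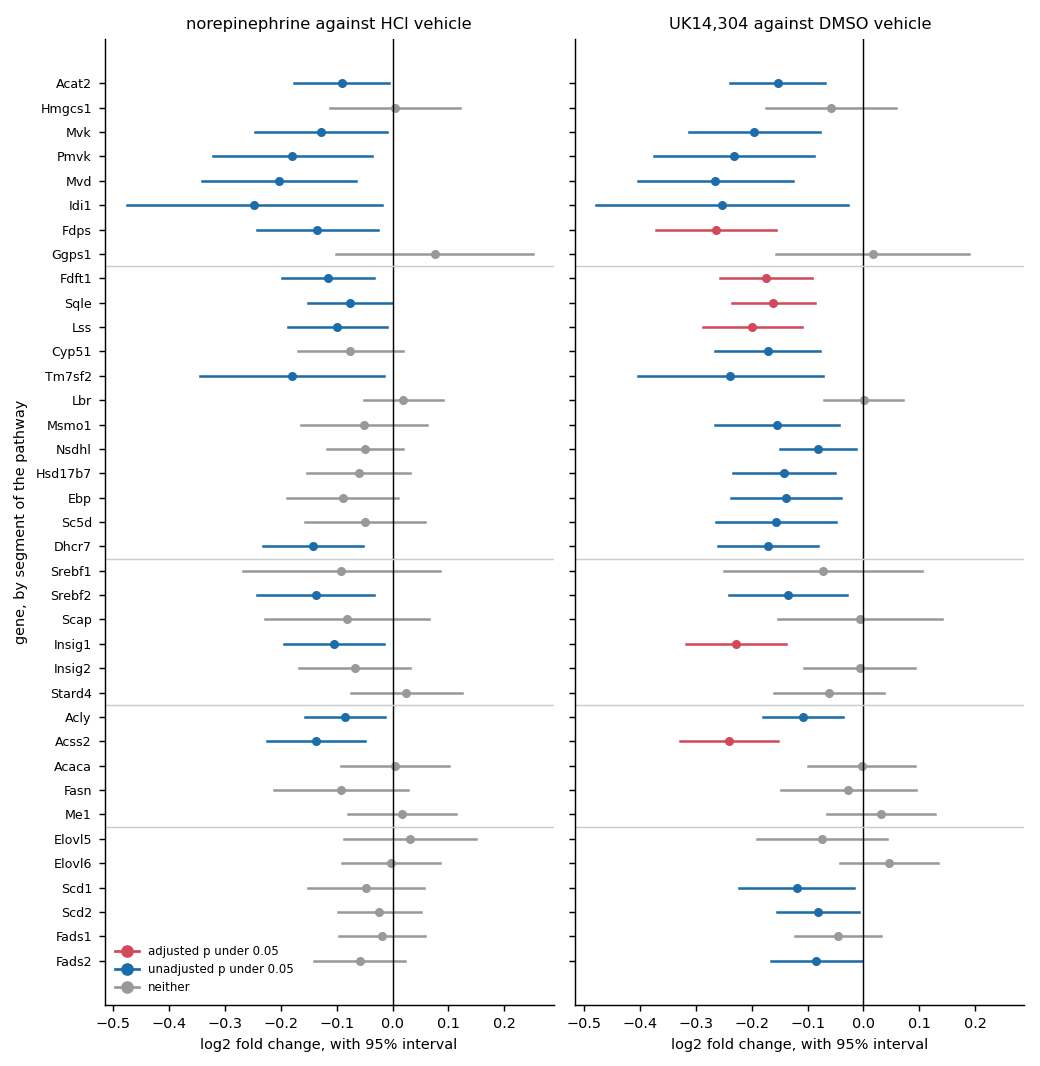
Log2 fold change (point) with its 95% interval (line) of each of the 37 genes for norepinephrine against HCl and UK14,304 against DMSO, from the fit with mouse as a block. 6 genes pass the adjusted threshold with UK14,304 (red) and 0 with norepinephrine, and 24 and 15 genes, all to the left of 0, have an unadjusted p under 0.05 (blue and red).

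With norepinephrine, 0 of the 37 genes passed in edgeR's test, beside 0.105% of all tested genes, and 0 passed with DESeq2. At an unadjusted p under 0.05, 15 genes were lower and 0 higher, where 5.56% of tested genes were lower and 2.83% higher. The log2 fold change was below 0 for 30 of 37 (52.7% of tested genes), with a median of -0.076 against -0.0077 over all tested genes. In 16 of the 37, all 4 mice were lower than their HCl library, against 8.28% of tested genes, and in 0 all 4 were higher, against 5.32%. The lowest adjusted p of the 37 was 0.556.

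The 3 lowest log2 values with norepinephrine were those of Idi1, Mvd and Tm7sf2. Idi1 stood at 4.94, 6.44, 4.17 and 4.59 CPM in HCl and 4.11, 4.73, 3.67, 4.02 and 4.68 CPM with norepinephrine, lower in all 4 mice (-0.25 ± 0.11, adjusted p = 0.584). Mvd was at 162, 169, 151 and 166 CPM in HCl and 133, 144, 126, 166 and 128 CPM with norepinephrine, lower in mice 1 to 3 by more than in mouse 4 (-0.20 ± 0.066, adjusted p = 0.556). Tm7sf2 was at 69.7, 79.5, 64.6 and 69.8 CPM in HCl and 59.4, 65.0, 54.8, 75.8 and 54.8 CPM with norepinephrine, and there mouse 4 was higher (-0.18 ± 0.078, adjusted p = 0.584).

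The 6 genes called with UK14,304 all had log2 values below 0 with norepinephrine. Fdps was at 41.0, 45.4, 38.5 and 40.8 CPM in HCl and 39.5, 39.4, 32.1, 39.9 and 37.4 CPM with norepinephrine, and Acss2 at 231, 261, 224 and 245 CPM and 218, 221, 195, 239.6 and 212 CPM. Insig1 was at 504, 633, 379.9 and 539.9 CPM in HCl and 461, 539.8, 385, 501 and 482 CPM with norepinephrine, with mouse 3 slightly higher and the other 3 mice lower. Their log2 fold changes were -0.13 ± 0.051, -0.14 ± 0.042 and -0.10 ± 0.043. Lss was at 318, 383, 322 and 351 CPM and 307, 342, 290.0, 349.6 and 314 CPM, Fdft1 at 221, 252, 214 and 232 CPM and 210.0, 224, 192, 227 and 200.4 CPM, and Sqle at 405, 449, 388 and 416 CPM and 389, 409, 377, 388 and 401 CPM. Each of these was lower in all 4 mice, with log2 fold changes of -0.099 ± 0.042, -0.11 ± 0.039 and -0.076 ± 0.036. In 4 of the 6 genes mouse 4 differed least, and its norepinephrine library is the one with the outlying GC slope.

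Srebf2 was at 394, 434, 406 and 422 CPM in HCl and 366, 379, 347, 417 and 361 CPM with norepinephrine, lower in all 4 mice (-0.14 ± 0.050, adjusted p = 0.556). Srebf1 was at 204, 199.6, 197 and 209 CPM and 188, 181, 176, 230.2 and 177 CPM, where mouse 4 alone was higher (-0.092 ± 0.083, adjusted p = 0.703). Hmgcs1 was at 540.4, 675, 503 and 598 CPM and 568, 642, 544, 535 and 606 CPM, 2 mice up and 2 down (0.0041 ± 0.055). Fasn, at 608, 719, 678 and 700.4 CPM and 573, 680.5, 582, 733 and 627 CPM, gave -0.092 ± 0.057, and Scd1, at 1881, 1442, 1408 and 1566 CPM and 1654, 1299.9, 1506, 1516 and 1588 CPM, gave -0.048 ± 0.050. The 3 highest log2 values were those of Ggps1, Elovl5 and Stard4, at 0.075 ± 0.084, 0.031 ± 0.056 and 0.024 ± 0.047, and none passed. Ggps1 held 33.8, 33.0, 29.99 and 33.0 CPM in HCl and 36.4, 33.9, 34.5, 29.3 and 38.4 CPM with norepinephrine, Elovl5 91.7, 94.7, 88.3 and 91.4 CPM and 91.7, 93.8, 97.7, 84.4 and 101.8 CPM, and Stard4 531, 538, 524 and 538 CPM and 543, 557, 559, 486 and 578 CPM. Each of the 3 was lower with norepinephrine in mouse 4, and Ggps1 and Stard4 were higher in mice 1 to 3. Cyp51, at 757, 915, 676 and 804 CPM and 734, 811, 669, 732 and 783 CPM, and Hsd17b7, at 103, 122, 90.8 and 102.3 CPM and 97.3, 114, 89.1, 97.0 and 101 CPM, were lower in all 4 mice without passing (-0.075 ± 0.045 and -0.061 ± 0.044). Elovl6 was close to 0 in its log2 value, with 278, 322, 246 and 293 CPM and 275, 322, 266, 266 and 294 CPM (-0.0023 ± 0.042).

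**Figure D3:**
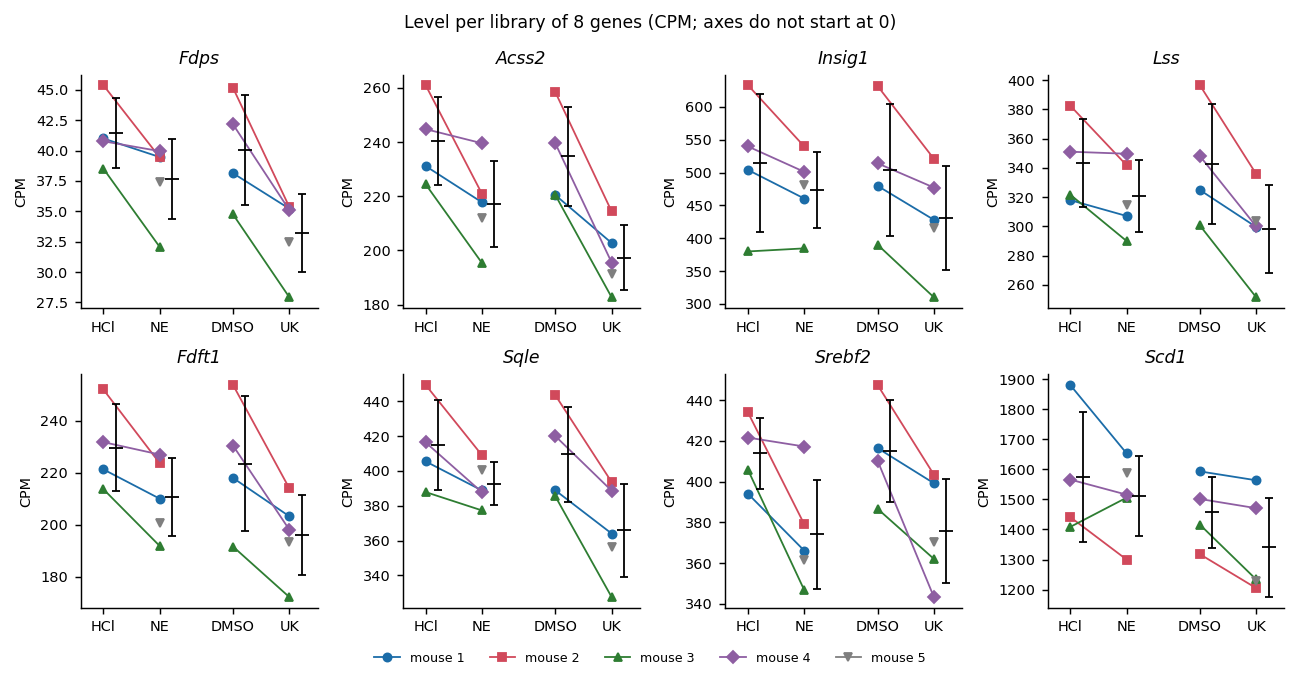
CPM of 8 genes in each library, with 1 symbol and colour per mouse, a line joining the vehicle and agonist library of a mouse, and black bars for the group mean ± SD (n = 4 vehicle, n = 5 agonist). All DMSO to UK14,304 lines slope down, and apart from Acss2 the DMSO and UK14,304 groups overlap. Mouse 1 is on top for Scd1, where mouse 2 is on top in both vehicles for the other 7 genes.

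Without the norepinephrine library of mouse 4, 13 of the 37 genes were called with norepinephrine, where 16.7% of all tested genes were called in either direction. With UK14,304, 19 were called, where 8.08% of all tested genes were called in either direction. The calls among the 37 were all lower. The 13 called with norepinephrine were Mvk, Pmvk, Mvd, Fdft1, Lss, Tm7sf2, Ebp, Dhcr7, Srebf1, Srebf2, Acly, Acss2 and Fasn. Among the genes named above, the norepinephrine log2 values of Tm7sf2, Srebf1 and Fasn were then -0.29, -0.18 and -0.14, from -0.18, -0.092 and -0.092 with all libraries. Those of Sqle, Cyp51, Hsd17b7 and Scd1 were closer to 0, at -0.045, -0.028, -0.031 and -0.017, and those of Ggps1, Elovl5, Stard4, Hmgcs1, Me1 and Elovl6 were 0.17, 0.096, 0.095, 0.075, 0.066 and 0.054, none of which passed. Elovl6 thereby went from just below 0 to above it.

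In mice 1 to 3 the norepinephrine library differed from the HCl library in GC slope by -0.13, -0.16 and -0.20, and in mouse 4 by 0.14. With the GC trend of each library removed, 0 of the 37 were called with norepinephrine, against 0.236% of all tested genes in either direction. With UK14,304, 20 were called, all lower, against 4.09% of all tested genes in either direction. The 20 held every mevalonate and sterol gene but Mvk, Ggps1 and Lbr, together with Insig1, Stard4 and Acss2. With a ribosomal RNA term, which marked only whether a library was over 1%, 1 gene stayed called with UK14,304, Acss2. There 0.512% of all tested genes were called, and the log2 values of the other 5 were -0.26 to -0.16. On the 11 libraries under 1% ribosomal RNA, a fit added after the data were seen, 16 of the 37 were called lower with norepinephrine (16.8% of all tested genes called) and 16 lower and 3 higher with UK14,304 (19.0%), the latter against 1 DMSO library. In mice 2 and 3 the DMSO library was over 1% ribosomal RNA and the UK14,304 library was not. In mouse 1 both were over 1%, in mouse 4 both were under 1%, and the median log2 difference over the 37 genes was -0.095 and -0.12 in these mice, against -0.14 and -0.13 in mice 2 and 3. For norepinephrine, the HCl and norepinephrine libraries were both under 1% in each of mice 1 to 3 and both over 1% in mouse 4, with medians of -0.061, -0.13, -0.072 and -0.031.

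**Figure D4:**
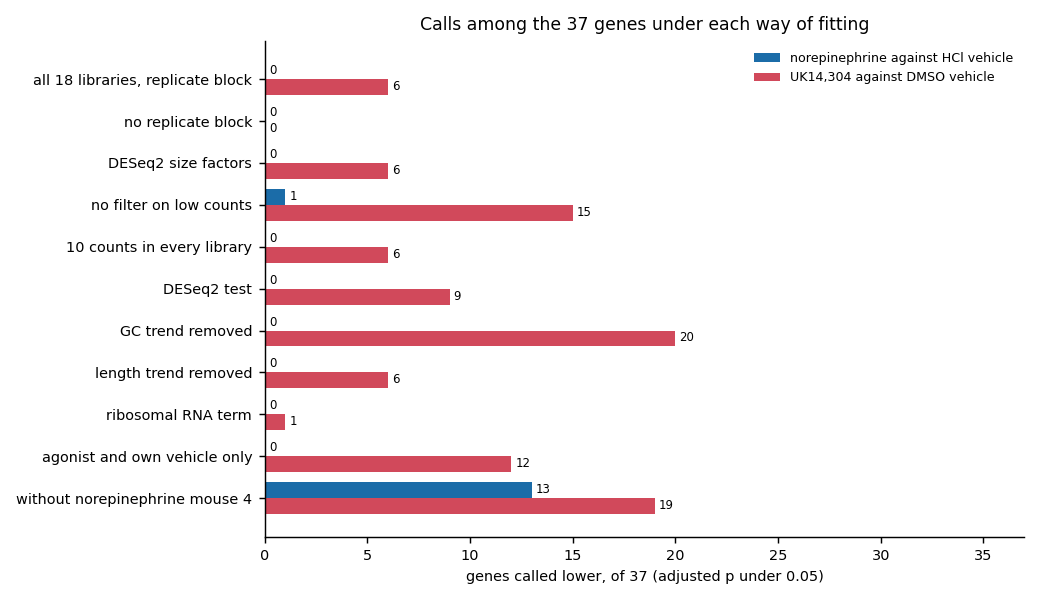
Number of the 37 genes called lower at an adjusted p under 0.05 (bars from 0) for norepinephrine (blue) and UK14,304 (red) under several ways of fitting the same counts. The number for UK14,304 runs from 0 without the mouse block to 20 with the GC trend removed, and for norepinephrine it is above 1, among the fits drawn, only without the norepinephrine library of mouse 4.

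The effects of both agonists were compared with each other through their own vehicles. For 0 of the 37 genes did the difference between the UK14,304 effect and the norepinephrine effect pass in edgeR's test (0 of all tested genes, and 1 with DESeq2, which was not among the 37). At an unadjusted p under 0.05 there was 1 of the 37, Insig1, where 2.66% of tested genes had one. For Insig1 the UK14,304 effect minus the norepinephrine effect was -0.12 ± 0.059 on the log2 scale (95% interval -0.25 to -0.00068, adjusted p = 1.00). For Fdps the difference was -0.13 (-0.28 to 0.018), for Acss2 -0.10 (-0.22 to 0.017) and for Lss -0.10 (-0.22 to 0.022). The estimate was lower for UK14,304 in 30 of the 37 genes, against 47.4% of tested genes. The last 3 intervals hold 0 and also differences about as large as the norepinephrine effects, so they show neither that the agonists differed nor that they acted alike.

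The vehicles were compared too, since HCl and DMSO were given to separate cultures of mice 1 to 4. Of the 37 genes 0 were called (0 of all tested genes with edgeR and with DESeq2), and 1 had an unadjusted p under 0.05 (1.82% of tested genes), which was Insig2 at 0.13 ± 0.049 for HCl against DMSO. Insig2 stood at 39.4, 44.1, 38.3 and 40.4 CPM in HCl and 37.9, 38.4, 34.6 and 36.7 CPM in DMSO, and HCl was higher in all 4 mice. For Scd1 the value was 0.11 ± 0.051.

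The mice were compared because libraries of the same number are read as coming from the same animal. In a joint test of the mouse terms, 23 of the 37 genes passed, beside 13.8% of all tested genes. They comprised 6 of 8 genes of the mevalonate segment, 10 of 12 of the sterol segment, 1 of 6 regulators, 2 of 5 of fatty acid synthesis and 4 of 6 of elongation and desaturation. The median share of a gene's variance that lay between mice was 49.0%, against 27.6% over all tested genes. The median share between groups was 24.5% against 15.2%. In 9 of the 37 genes (33.2% of all tested genes) the share between groups was above that between mice, as in Acss2 with 52.9% and 29.2% and Acly with 52.4% and 22.5%.

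Insig1 differed most, with a fitted range of 0.67 on the log2 scale between mice (1.59-fold, adjusted p = 5.62e-08), rank 89 among all 15247 tested genes. Its order of mice was the same in all 4 groups of cultures, as in HCl with 504, 633, 379.9 and 539.9 CPM. By p, Cyp51 and Hsd17b7 came next, with ranges of 0.38 and 0.37 (adjusted p = 7.98e-05 and 0.000118). Pmvk had a wider range of 0.53 at a higher p (adjusted p = 0.000476), and Idi1, with 0.48, did not pass (adjusted p = 0.0516). In HCl, Cyp51 stood at 757, 915, 676 and 804 CPM and Hsd17b7 at 103, 122, 90.8 and 102.3 CPM, so that mouse 2 was again highest and mouse 3 lowest. Of the 37 genes, 25 were highest in mouse 2 and 28 lowest in mouse 3, against 24.7% and 28.2% of all tested genes. In each of the 4 groups mouse 3 was the lowest of mice 1 to 4 for 17 of the 37 genes, against 8.21% of tested genes, and mouse 2 the highest for 6, against 4.89%. Both held for 4 genes, Sqle, Nsdhl, Hsd17b7 and Insig1, against 2.24% of tested genes.

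Scd1 did not follow that order. In the fit it was highest in mouse 1 and lowest in mouse 2, although in HCl mouse 3 was slightly below mouse 2, with HCl libraries at 1881, 1442, 1408 and 1566 CPM (range 0.35, adjusted p = 0.000613). Its paralog Scd2 was lowest in mouse 3 like the sterol genes, at 4457, 4698, 4135 and 4689.7 CPM in HCl (adjusted p = 0.00709). Me1 was lowest in mouse 3 in all 4 groups, with 82.5, 82.6, 66.7 and 81.4 CPM in HCl and 80.0, 84.4, 74.8, 75.3 and 87.6 CPM with norepinephrine (adjusted p = 0.00171). The transcription factor genes did not pass, with adjusted p of 0.335 for Srebf2 and 0.730 for Srebf1, nor did Stard4, Lbr, Ggps1 and Acaca. The count of 23 rested on mouse 2 and mouse 3, since 4 genes were called without mouse 2 (Cyp51, Insig1, Me1 and Fads1) and 4 without mouse 3 (Lss, Hsd17b7, Insig1 and Scd1). Of all tested genes, 808 (5.29%) were called without mouse 2 and 545 (3.56%) without mouse 3, against 2110 with all mice. Without mouse 4 there were 32 of the 37, where 4459 of all tested genes (29.2%) were called. The labels give no second organoid line of any mouse, so a difference between animals and a difference between lines cannot be told apart.

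**Figure D5:**
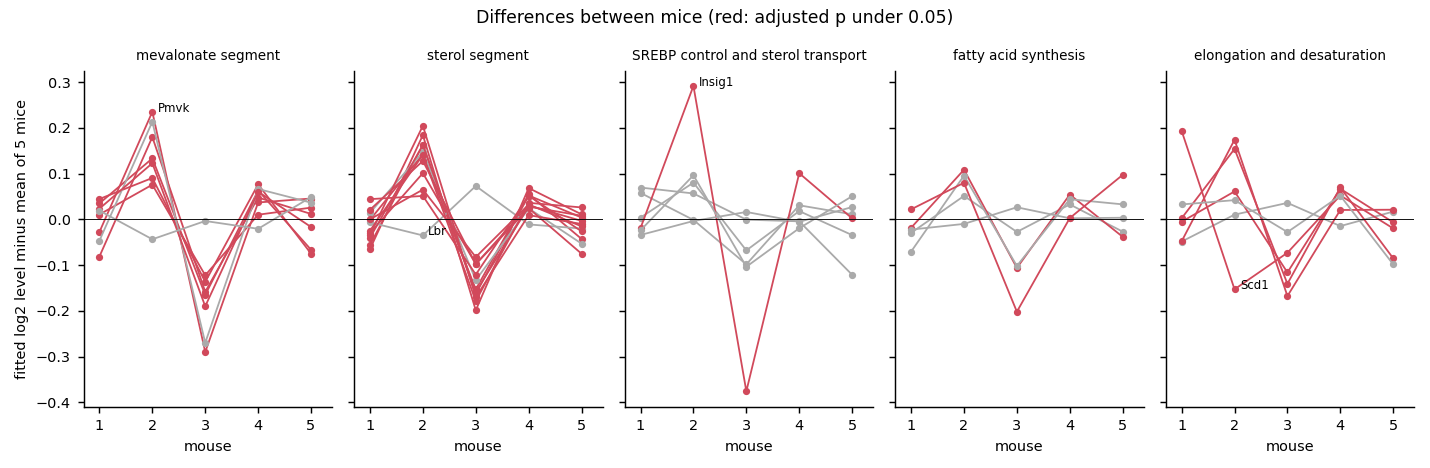
Fitted log2 level of each of the 37 genes in the 5 mice, minus the mean over the mice, in 5 panels by role, red where the joint test of mice had an adjusted p under 0.05. In the mevalonate and sterol panels nearly all lines peak at mouse 2 and dip at mouse 3, Insig1 spans 0.67, and Scd1 is high in mouse 1 and low in mouse 2.

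Over the 18 libraries most of the 37 genes varied together, with 528 of their 666 pairs positively correlated. The median Spearman correlation over these pairs was 0.54, against 0.001 over pairs of all tested genes, and it was 0.73 over the 190 pairs within the mevalonate and sterol segments. These points share mice, groups and library composition. The closest pair was Msmo1 and Sc5d at 0.98, an oxidase and a desaturase of the late sterol path. Fdft1, Nsdhl, Fdps and Lss were closest to the rest, with median correlations of 0.79, 0.78, 0.77 and 0.77 to the other genes. Lbr and Ggps1 ran against the rest at -0.38 and -0.32, and Acaca and Elovl5 were near 0 at -0.075 and -0.015. Srebf1 and Stard4 were the most opposed pair at -0.77.

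After the mean of each group and mouse was taken out, the median over the 666 pairs was 0.070. For many genes what was left varied with the GC slope of the libraries. The residuals of Srebf1, whose exons hold 59.4% GC, had a Spearman correlation of 0.97 with the residual slope, and those of Stard4, with 45.3% GC, one of -0.96. Dhcr7 and Mvd, at 52.3% and 59.2% GC, gave 0.91 and 0.91, and Ggps1 and Elovl5, at 43.2% and 46.6%, gave -0.80 and -0.82. Insig1 (47.1% GC) and Fdps (52.4%) were among the least related, at -0.14 and 0.26. The median GC of the 37 genes was 49.2%, close to the 49.97% of all tested genes.

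Lists of genes next to the pathway were set beside it, and with 0.105% of all tested genes called with norepinephrine and 1.22% with UK14,304, a count of 0 in lists of this size is near the background. Of 9 tested genes that process or degrade SREBP, such as the proteases Mbtps1 and Mbtps2, 0 passed with either agonist, and the median log2 fold change with UK14,304 was 0.046. The 12 genes of mevalonate branches, among them the prenyltransferases Fnta and Pggt1b, gave 0 calls and medians of -0.015 with norepinephrine and -0.0054 with UK14,304. The 14 genes of sterol storage, efflux and liver X receptor targets, such as Soat2, Abcg5 and Npc1l1, gave 0 calls and medians of -0.054 and -0.050. In 20 further genes of fatty acid and glycerolipid synthesis 0 passed, with medians of -0.086 and -0.057. At an unadjusted p under 0.05, 6 of the 20 were lower and 2 higher with UK14,304, where 8.68% of all tested genes were lower and 6.12% higher.

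Markers of some epithelial cell types differed in the same comparisons. All 6 Paneth cell markers had log2 values below 0 with both agonists, Lyz1 fell with both (-0.37 ± 0.050 with norepinephrine and -0.31 ± 0.050 with UK14,304, adjusted p = 0.00190 and 0.00310) and Ang4 fell with UK14,304 (-0.27 ± 0.059, adjusted p = 0.0220). Their summed level was 3592 to 5206 CPM in HCl and 2986 to 4018 with norepinephrine, and 3412 to 4969 in DMSO and 3026 to 4248 with UK14,304. Of 6 goblet cell markers, 5 had log2 values below 0 with each agonist. Agr2 alone was called, with UK14,304 (-0.16 ± 0.036, adjusted p = 0.0324). Muc2 was at 0.0019 ± 0.073 with norepinephrine and 0.11 ± 0.073 with UK14,304. The goblet sums were 3153 to 4803 CPM in HCl, 2616 to 4318 with norepinephrine, 2912 to 4738 in DMSO and 2749.5 to 4266 with UK14,304. None of 8 enterocyte, 5 stem cell, 5 proliferation, 6 enteroendocrine and 3 tested tuft cell markers passed with either agonist. The enterocyte markers summed to 14134 to 18567 CPM over all libraries, and the proliferation markers to 1561 to 1800.3 in HCl, 1629.9 to 1838 with norepinephrine, 1577 to 1693 in DMSO and 1704 to 1925 with UK14,304. The part of these cell types in the values of the 37 genes was not tested.

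Some counts are limited by shared sequence, since reads that matched more than 1 place or more than 1 gene were not counted. Fdps has near copies such as Gm3571, with 1062 bases at 98.9% identity, and Acat2 shares 1477 bases at 97.7% with Acat3. Acaca shares 6118 bases at 99.2% with Gm5182, Idi1 shares 684 bases at 100% with Gm13502, and Scd1 shares 623 bases at 95.5% with Scd2. The absolute levels of these genes are uncertain for that reason.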

How the data were processed

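Per the labels and the study's methods, the authors mapped reads of 18 organoid libraries with STAR 2.7.3 to GRCm38. They deposited raw counts per gene from featureCounts. Per the file header this used Ensembl 102 genes with default options, so reads at several places or over several genes were dropped and strand was not used. The submitters' processing notes also name FastQC 0.11.8, MultiQC 1.7, SAMtools 1.9 and Subread 1.6.4. The sources disagree in part. The file header names a later featureCounts version than Subread 1.6.4, and the study's methods name an older Ensembl release. The header was followed for the annotation. No column of per-sample values was left unused.

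The 37 genes were taken by symbol, and the members and all lists were chosen with earlier results of these data known. Groups, and the numbers read as mice, came from the sample labels. Counts were tested with edgeR 4.0.16 (R 4.3.3, TMM, filterByExpr, robust quasi-likelihood fit) over all 18 libraries with group and mouse as terms, and p-values were adjusted over 15247 genes by Benjamini-Hochberg. CPM used TMM library sizes, and log2 CPM had a prior count of 2. GC slopes were fitted across genes against the mean library. Same-numbered libraries deviated together, and the number is read here as the mouse. The correlation of deviations from group means was 0.28 for norepinephrine with HCl (lowest pair 0.12) and 0.35 for UK14,304 with DMSO (lowest pair 0.16). The script was tested on simulated data with known changes. These were all larger than the changes called among the 37 genes, so changes as small as those were not tested. With mouse as a block, p-values rest on the spread left after group and mouse are taken out, with 1 library of each mouse per group.

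Values in every library are given for genes called with either agonist, for the 3 highest and 3 lowest log2 fold changes per agonist, for 8 fixed genes (Hmgcs1, Sqle, Srebf1, Srebf2, Insig1, Stard4, Fasn and Scd1) and for the 3 lowest p between mice. A few other genes nearest to these are also given, and were chosen after their values were seen. Near copies were found with blastn 2.17.0 (at least 50 bases at 95% identity). Alternatives were no mouse block, DESeq2 1.42.0 and its size factors, other filters, and GC or length trends removed. Others were a ribosomal RNA term (over or under 1%), own vehicle only, and each library or mouse left out. The fit on libraries under 1% ribosomal RNA was chosen after seeing the data.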

Additional observations from a re-analysis of the deposited data

Results flagged for a closer look

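Of 84 groups of libraries looked at (21 genes in 4 groups), 3 held a library far from the others by Dixon's criterion, and chance alone flags about 1 in 20 groups. Srebf1 was highest in the norepinephrine library of mouse 4, at 230.2 CPM against 188 CPM in the next library, a gap of 0.785 of the group's range. The same library had the highest GC slope of the 18. Me1 was lowest in mouse 3 in the HCl group, at 66.7 CPM against 81.4 CPM in the next library (0.923 of the range), and in the UK14,304 group, at 66.5 CPM against 78.0 CPM (0.805 of the range). The causes were not tested.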

How the results depend on the processing

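Mouse numbers pair the libraries, and without the mouse block 0 of the 37 genes and 6 of all genes were called with UK14,304, and 0 of all genes with norepinephrine, where Hmgcs1 turned to -5e-04. With the block kept, the number of the 37 called with UK14,304 was 15 without the filter on low counts (627 of all genes), 20 with the GC trend removed (624), 1 with a ribosomal RNA term (78) and 12 with DMSO as the only other group (525). The median log2 fold change was -0.11 with the ribosomal RNA term. For norepinephrine, 1 of the 37 and 153 of all genes were called without the filter, 34 of all genes with DESeq2 and 36 with the GC trend removed. The difference between the agonists gave 24 genes without the filter, and 1 with DESeq2, at 10 counts in every library, or with the GC or length trend removed. The vehicles gave 17 genes without the filter, and the mice 3858 with the GC trend removed.

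On the 11 libraries under 1% ribosomal RNA, 16 of the 37 (2692 of all genes) were called with norepinephrine and 19 (3046) with UK14,304, whose median was -0.11. There UK14,304 rests on 1 DMSO library, from mouse 4, which is assumed to vary like the others. The other 7 libraries alone leave no residual degrees of freedom, so no fit was made.

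Signs turned for genes near 0. With norepinephrine, Elovl6 was 0.0006 with DESeq2 size factors, 0.0078 without the filter, 5e-04 with DESeq2, 0.0002 with the ribosomal RNA term and 0.034 on the 11 libraries. Hmgcs1 was -0.060 with the GC trend removed and -0.010 with HCl alone, and Stard4 and Me1 were -0.020 and -0.016 with the GC trend removed. With UK14,304 and the GC trend removed, Ggps1 was -0.061, Srebf1 0.0016, Fasn 0.046 and Me1 -0.0061. With the ribosomal RNA term Ggps1 was -0.0040 and Fasn 0.020. On the 11 libraries Hmgcs1 was 0.16, Hsd17b7 0.035, Stard4 0.039 and Elovl5 0.10.

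Leaving out each library or mouse in turn gave 0 to 19 of the 37 and 23 to 1225 of all genes with UK14,304, and 0 to 13 and 4 to 2529 with norepinephrine. The UK14,304 median ran from -0.14 to -0.11. The mice gave 4 to 32 of the 37 and 545 to 4459 of all genes, and the difference between agonists 0 to 12 genes. In these 23 fits Acss2 was called in 21, Insig1 in 17, Fdps in 16, Lss in 14, Fdft1 in 11 and Sqle in 6. Some of the fits left out an HCl or norepinephrine library and so kept every UK14,304 and DMSO library. Without mouse 2, and likewise without mouse 3, 0 of the 37 passed. With norepinephrine, Elovl6 ran from -0.029 to 0.054, Hmgcs1 from -0.018 to 0.075, Me1 from -0.019 to 0.066, Elovl5 from -0.0029 to 0.096 and Scd1 from -0.082 to 0.0050. With UK14,304, Ggps1 ran from -0.089 to 0.082, Fasn from -0.061 to 0.019, Srebf1 from -0.11 to 0.023 and Me1 from -0.0007 to 0.075. The causes were not tested. Depth limits Idi1 most, at 78 to 141 counts.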
